A study of Mus musculus with 3 samples.

Results

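Cluster 0 held 728 of the 9,562 single endothelial cells of the series, and its members were the cells to which the deposited table gives the cluster number 0. It is called arterial endothelial-like after the markers *Gja5*, *Gja4*, *Tmem100*, *Sox17*, *Cdh5* and *Vwf*, 4 of which were among its 10 genes with the highest ratio to all other cells. The samples are 3 pools (A, B and C) of endothelial cells that the methods describe as sorted from hearts of adult female mice that carry a GFP transgene. Each pool joined freshly sorted cells with cells recovered after 24, 48, 72 and 96 h in co-aggregates. The partner cells in every co-aggregate were *Mesp1*(der) PSCs, PDGFRA+ stromal cells of the E11.5 aorta–gonad–mesonephros region (AGM) that carry DsRed because *Mesp1* was active in their mesodermal ancestors. Fresh cells were sorted for GFP, CD31 and VE-Cad and against the blood markers CD45 and CD41 and the stromal markers PDGFRB and PDGFRA. Cells after culture were sorted for GFP, CD31 and VE-Cad and against PDGFRA alone, with no gate on blood markers. The culture medium held fetal calf serum with IL-3, SCF and Flt3L.

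The barcodes carry 1 of 3 library suffixes, and neither a pool nor a time point could be tied to a cell. The cells were therefore treated as 1 sample, no test was run, and fresh and cultured cells cannot be told apart within the cluster. Levels are UMIs (unique molecular identifiers, each marking 1 captured mRNA molecule) per 10,000 UMIs of a group of cells, with exact Poisson 95% intervals in parentheses. Ratios are log2 ratios of 2 such levels with exact conditional binomial intervals, and shares of cells have exact Clopper–Pearson intervals. All of these cover counting error only. The clusters were made from the same transcriptomes, so each difference between clusters describes how the cells were divided and is no independent evidence of it.

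Cluster 0 had 276, 284 and 168 cells in library suffixes 1, 2 and 3, or 7.87%, 7.18% and 8.01% of the cells of each library, and 7.61% (7.09–8.16%) of all cells. Its cells held 12586923 UMIs, with a median of 14,061 per cell and of 14,003, 11,165 and 24,511 in the 3 libraries. The median was 22,493 UMIs in cluster 2 and 7,875 in cluster 1, the other 2 clusters with high endothelial genes. Of the cluster 0 cells, 6 had fewer than 5,000 UMIs, the minimum given in the methods, and none shared its barcode sequence with a cell of another library.

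Arteries and veins are lined by endothelial cells of different identity. Arterial endothelium is known for Notch signalling through DLL4 and JAG1, for the Notch targets HEY1 and HEY2, for ephrin B2, and for gap junctions built from connexin 40 (*Gja5*) and connexin 37 (*Gja4*). Veins carry the nuclear receptor NR2F2, and the apelin receptor is typical of veins and capillary sprouts. In the embryonic dorsal aorta some arterial cells turn on *Runx1* and *Gfi1* and give rise to blood cells.

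The 6 markers were found together in most cells of cluster 0. When 5,000 UMIs were drawn from each cell so that depth was equal, which left 722 cells, 646 cells (89.5%) had a UMI of at least 4 of the 6 markers and 237 (32.8%) had all of them. At least 4 markers were found in 40 of 745 cells of cluster 1 (5.37%) and in 176 of 5,377 cells of cluster 2 (3.27%). Markers of most other cell types were low. All 9 macrophage genes and all 9 cardiomyocyte genes were at 0.1 or less, with summed levels of 0.182 and 0.169. The 9 fibroblast and stromal genes summed to 0.563, against 22.4 in cluster 4, and the 6 lymphoid genes to 0.0278. Of the 8 neutrophil and granulocyte progenitor genes, the 7 megakaryocyte and platelet genes and the 5 epithelial genes, 8, 6 and 4 were at 0.1 or less, and the summed levels were 0.0755, 0.276 and 0.465. Higher than in cluster 2 were the summed levels of the 10 smooth muscle and pericyte genes, at 3.27 against 0.177, and of the 8 erythroid genes, at 6.90 against 0.574. So was the sum of the 10 venous genes, which include *Vwf*, at 27.4 against 18.6. The erythroid sum was 0.446 to 21.4 over the libraries, and most of its embryonic globin UMIs lay in 1 cell, described with the variation among cells.

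The description of the cells as adult female heart endothelium was set beside 2 measurements, both chosen after the values were seen. The first was the sex chromosomes. Of the 728 cells, 326 (44.8%, 41.1–48.5%) had a UMI of at least 1 of the Y-linked genes *Ddx3y*, *Eif2s3y*, *Kdm5d* and *Uty* and none of *Xist*, the RNA made from the inactive X chromosome. Another 273 cells (37.5%, 34.0–41.1%) had *Xist* and no Y-linked UMI, 64 had both and 65 neither. Y-linked UMIs were thus found in 390 cells (53.6%) of a cluster described as female. Both classes were also found in every other cluster, in different shares. Cells with Y-linked UMIs only made up 43.7% of cluster 2, 55.4% of cluster 1 and 41.0% of cluster 3. Cells with *Xist* only made up 36.3% (35.0–37.6%), 21.9% (19.1–24.9%) and 22.6% (17.5–28.4%) of these clusters. In library suffixes 1, 2 and 3 the *Xist*-only share was 13.5%, 21.8% and 35.6% in cluster 1. It was 36.2%, 37.3% and 39.9% in cluster 0. Depth was not made equal for these shares, and 17.3% of the cluster 1 cells had neither kind of UMI. Arterial genes were found in both classes of cluster 0 cells. *Gja5* was at 5.45 (5.26–5.65) in the cells with Y-linked UMIs only and at 5.02 (4.83–5.22) in those with *Xist* only, and *Gja4* was at 14.6 and 13.8. Median depth was 14,390 and 14,788 UMIs in these classes.

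**Figure D1:**
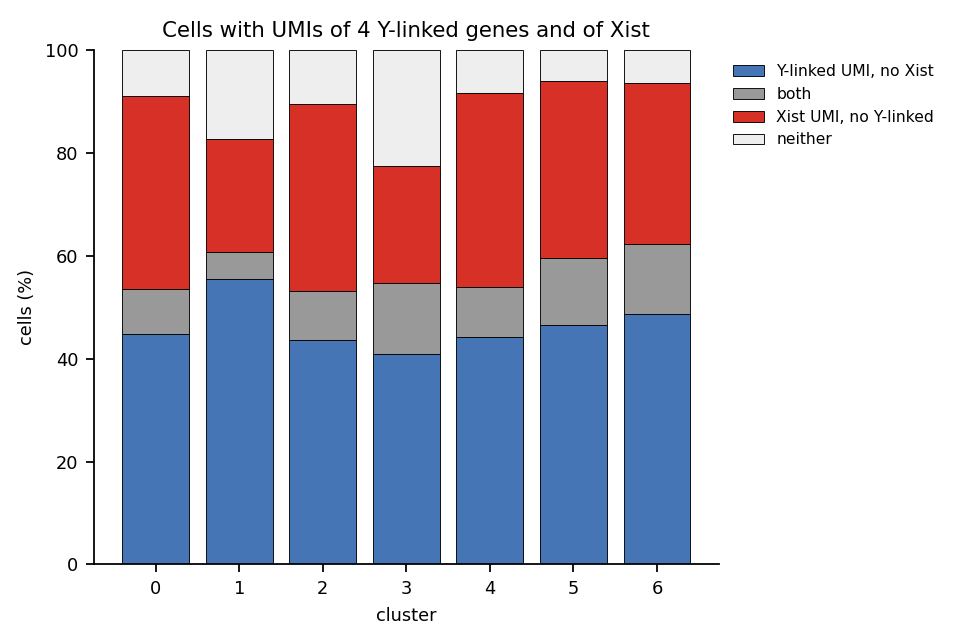
Share of the cells of each cluster (vertical axis, %) with UMIs of 4 Y-linked genes and of *Xist*, from the counts as deposited. In cluster 0, 44.8% of the cells had Y-linked UMIs only and 37.5% *Xist* only.

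The second measurement was a pair of gene lists. Of the 17 imprinted and fetal growth genes, which include growth factors, brakes on growth and RNA-binding proteins that most adult tissues make at low level, the summed level was 119 in cluster 0, against 64.0 for cluster 2 and 14.4 for cluster 1. The 14 capillary endothelial genes, many of which serve fatty acid uptake in adult heart, summed to 8.40, 12.3 and 94.1. By these sums, cluster 1 stood highest of those clusters in the capillary list and lowest in the fetal list, and cluster 0 stood the other way round. Cluster 4 also had a high fetal and a low capillary sum, at 87.4 and 4.49. The higher fetal sum than in cluster 2 came from few genes. Of the 15 fetal genes high enough to be ranked, 3 were higher in cluster 0 by at least 2-fold. These were *H19* at 33.0 against 7.92, *Igf2* at 37.0 against 10.4 and *Cdkn1c* at 13.2 against 3.20. The other 12 were counted as neither higher nor lower, and the median log2 ratio was 0.30. What these values, and the Y-linked UMIs, mean for the origin of the cells was not tested.

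*Gja5* (chr3:96904693-97077416, plus strand, on the GRCm38 assembly as all positions here) encodes connexin 40, the gap junction protein of arterial endothelium and of the conduction system of the heart. Its level was 5.40, 5.09 and 4.77 in library suffixes 1, 2 and 3 of cluster 0, 0.185, 0.329 and 0.222 in cluster 1 and 0.0607, 0.0724 and 0.0482 in cluster 2. The 3 libraries of cluster 0 stood close together and far above every library of the other 2 clusters. The log2 ratio was 6.41 (6.30 to 6.51) to cluster 2 and 4.48 (4.27 to 4.69) to cluster 1. After equal depth, 79.6% (76.5–82.5%) of the cells had a UMI, against 6.17% (4.56–8.15%) in cluster 1 and 2.72% (2.30–3.19%) in cluster 2. In cluster 3, taken as the reference for free RNA because its summed level of the 20 arterial genes was among the lowest at 2.36, the share was 3.77% (1.74–7.03%), with a median depth of 23,684 UMIs before the draw. The share in cluster 2 was below that of cluster 3. Whether these shares come from free RNA or from cells that make *Gja5* was not tested. The interval of cluster 1 overlapped that of cluster 3 and lay above that of cluster 2.

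*Gja4* (chr4:127311421-127314039, minus strand), connexin 37, partners with connexin 40 in arterial gap junctions. It was at 14.9, 12.9 and 13.7 in the libraries of cluster 0, at 0.768, 1.34 and 1.27 in cluster 1 and at 0.887, 0.940 and 0.891 in cluster 2. The ranges of cluster 0 and of the other 2 clusters did not overlap, and the ratio to cluster 2 was 3.94 (3.90 to 3.97). Of the 575 cells with a *Gja5* UMI after equal depth, 560 (97.4%) also had *Gja4*, and 15 cells had neither. Among the other connexins, *Gja1* (connexin 43) was at 0.649 in cluster 0, below the 2.74 of cluster 1, *Gjc1* (connexin 45) was at 0.750, and *Gjb2*, *Gja3*, *Gjb6* and *Gjc3* each had under 0.01.

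The sequences before the start sites of the 2 connexin genes, and of the Notch target gene *Hey2* which had the highest ratio to cluster 2 in its pathway, are shown because these genes mark arterial endothelium and so that the letters of arterial factors can be looked for in them. Each is the 250 bases before 1 transcript start in RefSeq on GRCm38.p6, 5′ to 3′. Capitals mark the letters ACAAT (core of SOX sites), TGGGAA (core of the Notch partner RBPJ) or CACCC (core of KLF sites) on either strand. RefSeq promoters were given for 14 of the 20 genes of the arterial list, and those of *Tmem100*, *Sox17*, *Cdh5*, *Vwf* and *Hey1* were not used here.
*Gja5*, chr3:97032152-97032401, plus strand: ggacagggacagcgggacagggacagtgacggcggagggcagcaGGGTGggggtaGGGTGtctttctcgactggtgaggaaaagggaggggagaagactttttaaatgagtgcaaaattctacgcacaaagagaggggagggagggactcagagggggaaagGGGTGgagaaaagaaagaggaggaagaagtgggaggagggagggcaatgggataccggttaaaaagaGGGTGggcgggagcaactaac
*Gja4*, chr4:127314040-127314289, minus strand: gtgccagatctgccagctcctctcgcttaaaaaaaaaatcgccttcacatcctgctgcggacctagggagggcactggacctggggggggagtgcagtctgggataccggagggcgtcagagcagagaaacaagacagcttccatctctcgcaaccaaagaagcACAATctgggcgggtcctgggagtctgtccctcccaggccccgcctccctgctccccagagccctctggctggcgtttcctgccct
*Hey2*, chr10:30842784-30843033, minus strand: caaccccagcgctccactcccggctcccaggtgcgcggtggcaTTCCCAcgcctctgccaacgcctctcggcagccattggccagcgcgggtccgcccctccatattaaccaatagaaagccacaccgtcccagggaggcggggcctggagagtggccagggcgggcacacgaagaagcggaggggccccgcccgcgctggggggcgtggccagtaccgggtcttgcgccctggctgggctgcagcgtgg
The *Gja5* stretch held CACCC 4 times, each on the other strand and starting 206, 195, 88 and 21 bases before the transcript start, and held neither ACAAT nor TGGGAA. *Gja4* held ACAAT once, starting 86 bases before the start, and *Hey2* held TGGGAA once on the other strand, 207 bases before it. Of all 32,851 promoter stretches of the same length in the table, 27.7% held ACAAT, 21.6% TGGGAA and 52% CACCC. The ETS core GGAA, which TGGGAA contains, is not capitalised. It occurred 3 times in *Gja5*, 2 times in *Gja4* and once in *Hey2*, and in 93.4% of all stretches. These matches are a description of letters only.

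*Tmem100* (chr11:90030348-90036508, plus strand) encodes a membrane protein that endothelium makes in response to BMP9 and BMP10 through ALK1. Its levels were 3.12, 2.58 and 3.20 in the libraries of cluster 0, 0.0642, 0.199 and 0.120 in those of cluster 1 and 0.0392, 0.0363 and 0.0278 in those of cluster 2. With a ratio of 6.44 (6.30 to 6.58) it led the genes higher than in cluster 2. *Vwf* (chr6:125546774-125686679, plus strand), the clotting factor carrier stored in endothelial granules, was at 4.76, 6.17 and 4.82, against 0.616 to 1.09 over the libraries of cluster 1 and 0.196 to 0.251 over those of cluster 2. All libraries of cluster 0 were above all libraries of clusters 1 and 2 for both genes.

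*Sox17* (chr1:4490931-4497354, minus strand), a SoxF transcription factor needed for arterial identity, differed less. It was at 3.73, 3.39 and 3.17 in cluster 0, at 1.95, 1.63 and 2.03 in cluster 1 and at 1.26, 1.17 and 1.25 in cluster 2, with ratios of 0.85 (0.77 to 0.93) to cluster 1 and 1.48 (1.43 to 1.53) to cluster 2. The related *Sox18* was at 2.66, 2.96 and 1.75 in clusters 0, 1 and 2, and *Sox7* at 0.959, 0.716 and 0.413. *Cdh5* (chr8:104101625-104144511, plus strand), VE-cadherin, did not set cluster 0 apart from cluster 1, with levels of 8.98, 9.80 and 9.20 and of 9.56, 11.1 and 9.68 in the 3 libraries, which overlapped. The ratio was -0.095 (-0.14 to -0.054). In cluster 2 it was at 4.08, 4.73 and 4.11, below both.

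**Figure D2:**
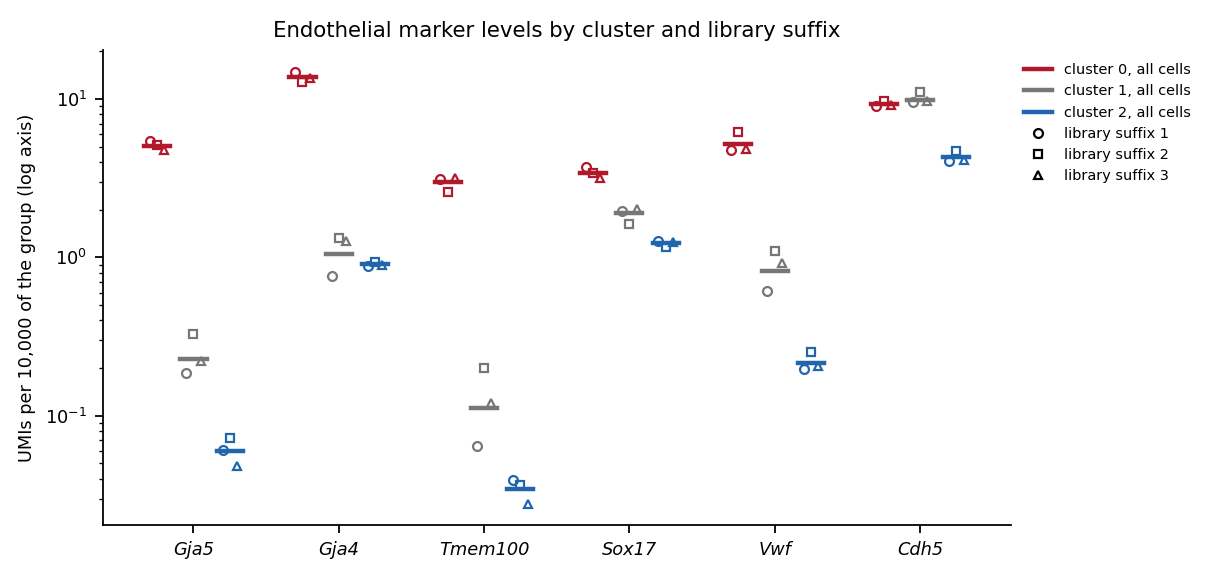
Levels of the 6 markers (vertical log axis, UMIs per 10,000 UMIs of the group) in clusters 0, 1 and 2. Bars are all cells of a cluster and symbols its 3 library suffixes. *Gja5*, *Gja4*, *Tmem100*, *Sox17* and *Vwf* were highest in cluster 0 in every library, and *Cdh5* was at like levels in clusters 0 and 1.

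Cluster 2, with 5,396 cells the largest, was compared gene by gene. A gene was ranked if it reached 1 UMI per 10,000 in the higher cluster, and counted as higher or lower if the ratio was at least 2 with the same direction in all 3 libraries. Of 2,017 ranked genes, 164 (8.13%) were higher in cluster 0 and 45 (2.23%) were lower, and the median log2 ratio was -0.071. A gene that is low in one cluster is ranked only if it is high in the other, so counts over ranked genes of a list are a description beside these percentages. The 10 leading genes were *Tmem100*, *Gja5*, *Htra1*, *Acta2*, *Nkx2-3*, *Hbb-bh1*, *Tagln*, *Vwf*, *Fbn1* and *Serpinf1*. *Htra1*, a secreted serine protease, was at 1.76 (1.69–1.84) in cluster 0 and 0.0263 (0.0237–0.0292) in cluster 2, and *Nkx2-3*, a homeobox factor, at 1.63 (1.56–1.70) and 0.0451 (0.0417–0.0488). *Hbb-bh1*, an embryonic globin, had 96.4% of its UMIs in 1 cell, and without that cell it was at 0.0366 and was not ranked.

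**Figure D3:**
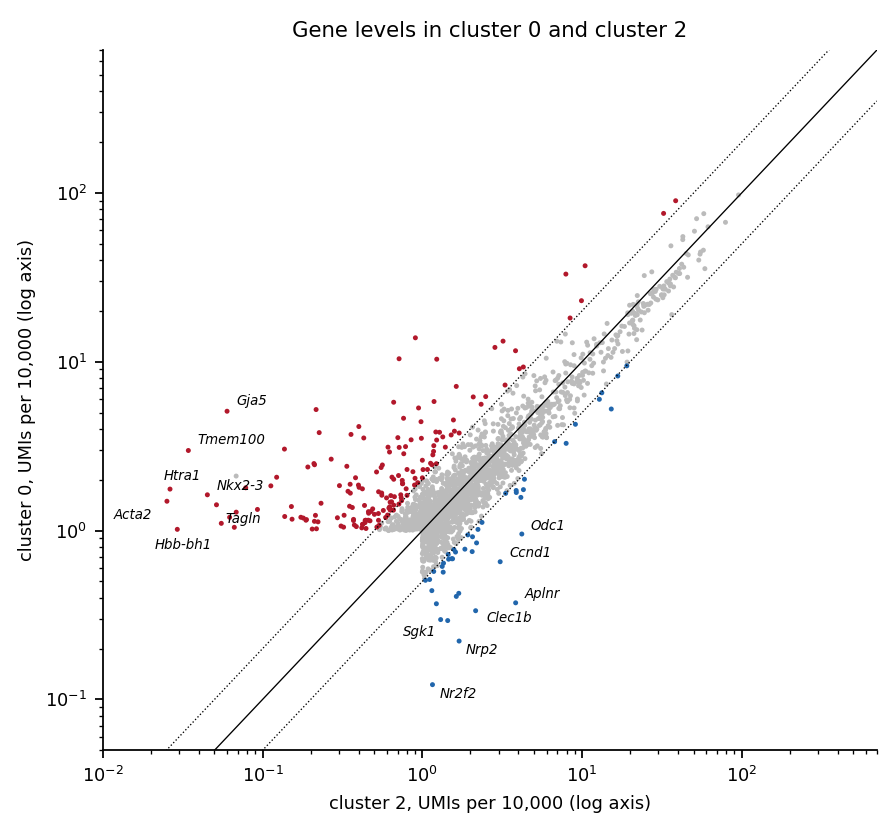
Levels of the 2,017 ranked genes in cluster 2 (horizontal) and cluster 0 (vertical), both log axes in UMIs per 10,000. Red and blue points are the 164 genes higher and 45 lower in cluster 0, the solid line is equality and dotted lines are a 2-fold ratio. *Gja5* and *Tmem100* lie far to the upper left.

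Of the 20 genes of the arterial endothelial list, 13 were ranked against cluster 2 and all 13 were higher in cluster 0. The other 7 were under the minimum in both clusters, and with a minimum of 0.1 all 20 were ranked and higher. The summed level of all 20 was 61.2, with a range of 60.0 to 62.1 over the libraries, and 8.45 in cluster 2. *Efnb2*, the ephrin that marks arterial against venous endothelium, had a ratio of 2.35 (2.30 to 2.41). *Nrp1*, the VEGF co-receptor of arteries, was at 11.7, 12.8 and 12.1 in the libraries of cluster 0 and at 2.63, 3.16 and 2.79 in those of cluster 2. *Mecom*, a zinc-finger factor, had a ratio of 3.04, *Stmn2*, which regulates microtubules, 3.12 (3.08 to 3.17), and *Sema3g*, a secreted semaphorin of arteries, 3.14 (3.04 to 3.24). *Bmx*, a kinase of large arteries, did not reach the minimum, with 0.650 (0.606–0.696) in cluster 0 and 0.00591 (0.00470–0.00732) in cluster 2.

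Notch ligands, a receptor and targets were higher than in cluster 2. Of 18 genes, 7 were ranked and 6 were higher in cluster 0 than in cluster 2. Among the ligands, *Dll4* was at 1.71 (1.64–1.78) against 0.343 (0.333–0.352) and *Jag1* at 1.15 (1.09–1.21) against 0.187 (0.180–0.194). The receptor *Notch1* had a ratio of 1.18 (1.12 to 1.24), and *Notch4* was at 0.900 and 0.323, under the minimum. Among the targets, *Hey1* was at 2.58, 2.15 and 2.45 in the libraries of cluster 0 and at 0.360, 0.362 and 0.293 in cluster 2, without overlap. *Hey2* was at 0.643 (0.599–0.689) against 0.0115 (0.00976–0.0134), and *Nrarp*, a feedback inhibitor, had a ratio of 1.46 (1.38 to 1.54). *Hes1* stood at 0.364 and 0.440, and the pathway's DNA-binding factor *Rbpj* at 0.485 and 0.400, both under the minimum. *Mfng*, which adds sugars to Notch receptors, was ranked with a ratio of 0.25 and did not reach 2-fold.

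Set against cluster 1, the ligand *Dll4* was not higher and the ligand *Jag1* was. *Dll4* was at 1.68, 1.59 and 1.84 in the libraries of cluster 0 and at 1.89, 2.32 and 2.11 in cluster 1. The ratio was -0.27 (-0.36 to -0.17), while *Hey1* had a ratio of 2.04 (1.90 to 2.18), *Jag1* of 1.23 (1.08 to 1.40) and *Hey2* of 5.17 (4.44 to 6.02). *Hes1* was lower in cluster 0, at 0.364 against 1.06. Of the 8 genes ranked against cluster 1, 2 were higher and 1 was lower, where 9.81% of all ranked genes were higher and 15.4% lower.

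Among the 23 BMP and TGF-beta pathway genes, 10 were ranked against cluster 2 and 6 were higher. The receptors *Acvrl1* (ALK1) and *Bmpr2* had ratios of 1.09 (1.02 to 1.15) and 1.21 (1.13 to 1.28). The inhibitory SMADs, which BMP signals induce and which damp them, were at 1.33 (1.27–1.40) against 0.0929 (0.0879–0.0981) for *Smad6* and at 2.06 (1.98–2.14) against 0.382 (0.372–0.392) for *Smad7*. *Id1*, a direct target, had a ratio of 1.53 (1.49 to 1.57). *Id3* was at 13.2 against 6.95, with a ratio of 0.93 that stayed under 2-fold. Of the ligands, *Tgfb1* passed the minimum with a ratio of -0.056 (-0.12 to 0.0024), and the BMP ligands were low, with *Bmp2* at 0.0143, *Bmp4* at 0.192 and *Bmp6* at 0.0119 in cluster 0. Against cluster 1, 2 of 11 ranked genes of this list were higher, 1 was lower and 8 were neither. There *Id1* had a ratio of -0.0585 and *Bmpr2* of 0.088. The list summed to 36.9, 32.0 and 18.1 in clusters 0, 1 and 2.

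In the list of VEGF and angiopoietin genes, 4 of 8 ranked genes were higher and 2 lower than in cluster 2. *Vegfc*, a ligand of VEGFR3 and VEGFR2, was at 2.58, 2.18 and 2.57 in the libraries of cluster 0 and at 0.219, 0.224 and 0.193 in cluster 2. The receptors *Tek* and *Tie1* had ratios of 1.06 (0.99 to 1.12) and 1.29 (1.24 to 1.33). *Kdr* (VEGFR2) was at 5.11 (4.99–5.24) and 4.94 (4.90–4.98), a ratio of 0.050 (0.013 to 0.087). The co-receptors went in opposite directions, with *Nrp1* higher and *Nrp2*, the co-receptor of veins and lymphatics, at 0.176, 0.305 and 0.195 in cluster 0 and 1.51, 1.98 and 1.63 in cluster 2. In the axon guidance list, 5 of 7 ranked genes were higher, among them the netrin receptor *Unc5b* at 1.88 against 0.353 and the ephrin *Efna1* at 3.52 against 0.986, and *Nrp2* was lower.

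Genes that act on vessel tone were also higher than in cluster 2, with 6 of 7 ranked genes of 15. *Edn1*, the vasoconstrictor endothelin 1, was at 2.16, 2.57 and 2.44 in cluster 0 and 0.210, 0.185 and 0.181 in cluster 2, and its processing enzyme *Ece1* had a ratio of 1.04 (0.97 to 1.10). *Calcrl* and *Ramp2*, which together form the adrenomedullin receptor, had ratios of 2.49 (2.45 to 2.53) and 1.11 (1.09 to 1.13), and *Ptgis*, the prostacyclin synthase, of 2.52 (2.43 to 2.61). *Nos3*, the endothelial nitric oxide synthase, was at 0.899 and 0.418, under the minimum. Of the flow-responsive list, 3 genes were ranked and 2 were higher, and *Klf2*, the factor induced by laminar flow, had a ratio of 0.58 (0.54 to 0.62). Against cluster 1, 5 of 9 ranked genes of vessel tone were higher and 1 was lower, and *Ece1* had a ratio of -0.30. Of the 6 flow-responsive genes ranked there, 1 was higher and 2 were lower. The flow-responsive list summed to 18.8, 25.4 and 9.31 in clusters 0, 1 and 2.

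The matrix of the arterial wall was represented by 18 elastic fibre and basement membrane genes, of which 12 were ranked and 6 higher than in cluster 2. *Fbn1*, the fibrillin of elastic fibres, was at 1.47, 2.14 and 1.82 against 0.0761, 0.0901 and 0.0704, and *Fn1*, fibronectin, at 9.11, 12.2 and 9.95 against 1.13, 1.45 and 1.13. The libraries of the 2 clusters did not overlap for either gene. *Ltbp4*, which helps to assemble elastic fibres, had a ratio of 4.32 (4.19 to 4.45). *Eln* (elastin), *Fbln2* and *Fbln5* were under the minimum in the cluster as a whole, at 0.791 (0.743–0.842), 0.424 (0.389–0.462) and 0.421 (0.386–0.458), and were unevenly spread over its cells, as described below. *Col4a1* and *Col4a2*, the collagens of the basement membrane, were at 14.6 and 9.09 in cluster 0 and at 7.86 and 4.05 in cluster 2. Against cluster 1, 3 of 12 ranked genes of this matrix list were higher, 1 was lower and 8 were neither. The list summed to 74.6, 64.2 and 30.8 in clusters 0, 1 and 2. The general endothelial genes differed less than the arterial ones. Of 14, 12 were ranked and 5 were higher than in cluster 2, with *Pecam1* (CD31) at a ratio of 1.14 (1.11 to 1.17) and *Cldn5* at 0.40 (0.37 to 0.43). Of the 13 ranked against cluster 1, 0 were higher and 1 was lower, and the sums were 64.0 in cluster 0 and 67.5 in cluster 1.

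*Acta2* and *Tagln*, cytoskeletal genes of smooth muscle, were both higher than in cluster 2. *Acta2* was at 1.44, 1.64 and 1.41 in the libraries of cluster 0 and at 0.00726 to 0.0421 over those of cluster 2, and *Tagln* at 1.49, 1.42 and 1.36 and 0.0268 to 0.0685. Both were higher still in cluster 4, at 7.03 and 5.91. The other genes of the 10-gene smooth muscle and pericyte list stayed low in cluster 0, with *Myh11* at 0.00318, *Pdgfrb* at 0.0135, *Cspg4* at 0.00238, *Des* at 0.00715 and *Rgs5* at 0.0270. Of the mesenchymal transition list, in which *Acta2* and *Tagln* also stand, 4 of 7 ranked genes were higher than in cluster 2, the other 2 being *Fn1* and the transcription factor *Zeb2* at 1.29 against 0.460. *Snai1*, *Snai2* and *Twist1* were at 0.0763, 0.0310 and 0.144. The summed level of the smooth muscle and pericyte list was 3.06 to 3.50 over the libraries of cluster 0 and 16.4 in cluster 4.

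The 10 genes with the lowest ratio to cluster 2 were *Aplnr*, *Nr2f2*, *Nrp2*, *Clec1b*, *Sgk1*, *Ccnd1*, *Odc1*, *Dok4*, *Bok* and *Gng2*. *Aplnr*, the apelin receptor, was at 0.347, 0.465 and 0.320 in the libraries of cluster 0 and at 3.72, 3.79 and 4.00 in cluster 2. *Nr2f2*, the factor that specifies veins, was at 0.0901, 0.191 and 0.0950 and 1.04, 1.39 and 1.06. Neither gene's ranges overlapped, and the ratios were -3.36 (-3.50 to -3.23) and -3.24 (-3.48 to -3.01). Of the 10 venous genes as a whole, 1 of 5 ranked genes was lower and 1, *Vwf*, was higher. The summed level of all 10 was 27.4 in cluster 0, 18.6 in cluster 2 and 13.5 in cluster 1. Over the libraries of cluster 0 the sum ran from 27.2 to 27.7. *Ephb4*, the venous receptor of ephrin B2, was at 0.915 (0.863–0.970) in cluster 0 and 0.884 (0.869–0.900) in cluster 2, and *Emcn* had a ratio of -0.14. The 7 lymphatic genes were all under the minimum, with *Prox1* at 0.0310 and *Lyve1* at 0.0493.

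Genes of proliferation had lower levels in cluster 0 than in cluster 2, mostly by less than 2-fold. Of the 16 genes of the G2 and M phases, 12 were ranked, 1 (*Ccna2*) was lower by 2-fold, 6 were so after equal depth, and the median log2 ratio was -0.76. Of the 16 S-phase genes, 10 were ranked, 1 (*Rrm2*) was lower, and the median was -0.55. *Top2a*, a topoisomerase of dividing cells, was at 2.22, 2.53 and 2.57 in cluster 0 and at 3.40, 4.13 and 3.54 in cluster 2, and was found in 30.7% (27.4–34.3%) and 63.5% (62.2–64.8%) of the cells after equal depth. *Ccnd1*, the cyclin of cell cycle entry, had a ratio of -2.23 (-2.33 to -2.13), and *Odc1*, which starts polyamine synthesis, of -2.14 (-2.22 to -2.05). The imprinted inhibitor *Cdkn1c* (p57) was at 13.5, 11.2 and 14.7 against 3.04, 3.14 and 3.41, a ratio of 2.05 (2.02 to 2.07) without overlap, while *Cdkn1a* (p21) was at 0.217 and 0.330 and *Cdkn1b* (p27) at 0.388 and 0.328. In the list of glycolysis and hypoxia, 4 genes were lower by 2-fold among 8 ranked of 15, namely *Pfkl*, *Pgam1*, *Pkm* and *Ldha*, the last with a ratio of -1.10 (-1.13 to -1.07).

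Against cluster 1, 220 of 2,242 ranked genes (9.81%) were higher in cluster 0 and 346 (15.4%) were lower. The 10 highest ratios belonged to *Sost*, *Nkx2-3*, *Serpinf1*, *Hbb-y*, *Igfbp2*, *Tmem100*, *Gja5*, *Emb*, *H19* and *Mfap2*. *Hbb-y* reached the minimum through 1 cell with 87.0% of its UMIs, and without that cell it was at 0.496 and was not ranked. *Sost*, an inhibitor of WNT signalling, was at 1.27, 1.39 and 1.20 in the libraries of cluster 0 and at 0.0250 (0.0155–0.0382) in cluster 1. *Serpinf1*, which encodes the anti-angiogenic factor PEDF, was at 3.33, 2.70 and 3.04 and 0.0832 (0.0649–0.105), and *Igfbp2*, a carrier of insulin-like growth factors, at 3.06, 2.82 and 2.87 and 0.106 (0.0850–0.130). *Mfap2*, a microfibril protein, had a ratio of 4.19 (3.87 to 4.51). Of the 17 arterial genes ranked here, 10 were higher and 4 were lower, the latter being *Cxcl12*, *Clu*, *Mgp* and *Cxcr4*. All 9 ranked genes of the G2 and M phases were higher than in cluster 1, with a summed level of 26.7 against 7.91. That sum was 83.0, 36.8 and 17.2 in the sub-clusters 4, 5 and 6 described below, and 5.08, 3.94 and 8.88 in sub-clusters 1, 2 and 3, near the level of cluster 1.

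Most imprinted and fetal growth genes were higher than in cluster 1. Of 17 genes, 14 were ranked, 13 were higher and none was lower, and the median log2 ratio was 2.53. *Igf2*, the fetal growth factor, was at 28.6, 39.3 and 43.7 in the libraries of cluster 0, 1.30, 3.90 and 2.79 in cluster 1 and 7.82, 11.7 and 11.9 in cluster 2. *H19*, the non-coding RNA of the same imprinted locus, was at 28.6, 38.4 and 32.8, 1.40, 2.89 and 1.52 and 6.68, 9.59 and 7.63. Cluster 0 was the highest of the 3 clusters in each library for both. *Hmga2*, a chromatin protein of fetal tissue, was at 4.79 (4.67–4.92) in cluster 0, 0.571 (0.521–0.624) in cluster 1 and 3.43 (3.40–3.46) in cluster 2, and *Igf2bp1*, which binds *Igf2* mRNA, at 2.07, 0.290 and 2.22. Against cluster 2, 3 of the 15 ranked genes were higher, namely *H19*, *Igf2* and *Cdkn1c*, and *Mest* was at 13.5 against 22.0. In cells of cluster 0 with Y-linked UMIs only, *Igf2* was at 40.4, *H19* at 35.9 and *Hmga2* at 4.78, and in those with *Xist* only at 36.2, 30.8 and 4.85.

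Genes lower in cluster 0 than in cluster 1 were led by inflammatory and macrophage genes, with *Saa3*, *Il1b*, *Ccl5* and *Il1a* at the head and *AA467197*, *Il1rn*, *Cxcl3*, *Ms4a7*, *Cd14* and *Ccl2* after them. Of the 18 inflammatory genes, 13 were ranked and all 13 were lower, and the summed level was 2.70 in cluster 0 and 83.7 in cluster 1. In cluster 0, 14 of these 18 genes were at 0.1 or less, and such genes could be ranked only through cluster 1. The count of 13 is therefore only a description, beside the 15.4% of all ranked genes that were lower. The chemokine *Ccl2* was at 0.0586, 0.0183 and 0.00695 in the libraries of cluster 0 and at 15.5, 6.79 and 9.12 in those of cluster 1. All 10 ranked genes of the interferon and antigen presentation list were lower as well, among them the class I heavy chain *H2-K1* at 0.456 (0.419–0.495) against 16.4 (16.1–16.6), as were 10 of 11 immediate early genes such as *Fos* at 0.567 against 5.53. Of the 15 interferon and antigen presentation genes, 8 were at 0.1 or less in cluster 0, so the same limit holds for their count. Against cluster 2, 2 of 4 ranked interferon and antigen presentation genes were higher, *Ifitm3* with a ratio of 2.02 (1.97 to 2.07) and *Bst2* with 1.68 (1.62 to 1.75). The 9 macrophage genes summed to 0.182 in cluster 0 and 17.6 in cluster 1, where *Lyz2* was at 12.0, and their part in the difference was not tested.

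The capillary endothelial list was low in cluster 0. Of 14 genes, 10 were ranked against cluster 1 and 8 were lower. *Fabp4*, a fatty acid binding protein, was at 1.38, 0.963 and 0.496 in the libraries of cluster 0 and at 60.8, 55.2 and 78.0 in cluster 1, a ratio of -6.09 (-6.18 to -6.01). *Gpihbp1*, which carries lipoprotein lipase across capillaries, had a ratio of -5.48 (-5.66 to -5.31) and *Cd36*, the fatty acid transporter, of -5.15 (-5.41 to -4.91). These were at 1.33, 0.262 and 0.158 in cluster 2, and at 0.952, 0.226 and 0.114 in cluster 0. *Kdr* was an exception to the low levels, at 5.11 in cluster 0 and 3.83 in cluster 1. *Plvap*, the protein of fenestrae and caveolae, is not one of these 14 genes. It was higher in cluster 0 at 13.1, 12.3 and 13.8 against 2.12, 3.01 and 1.94 in cluster 1. Of the 8 endocardial genes, the natriuretic peptide receptor *Npr3* was at 2.65 (2.56–2.74), against 0.181 (0.153–0.212) in cluster 1 and 0.269 (0.260–0.278) in cluster 2, whereas *Nfatc1*, *Gata4* and *Cytl1* were at 0.204, 0.0508 and 0.114. Of the 2 endocardial genes ranked against cluster 2, 1 was higher and 1 was lower, and the 2 ranked against cluster 1 were both higher. The endocardial list summed to 5.12, 1.56 and 4.81 in clusters 0, 1 and 2.

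**Figure D4:**
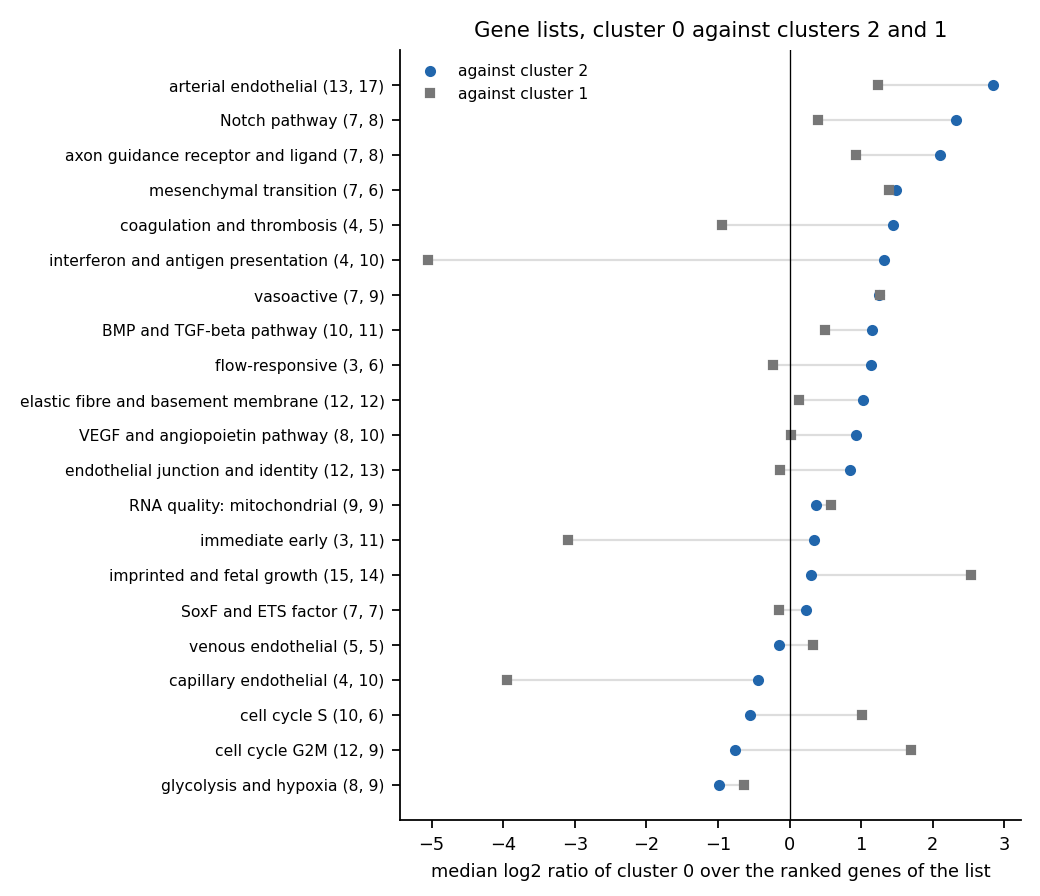
Median log2 ratio of cluster 0 (horizontal axis) over the ranked genes of each list with at least 3 ranked genes against cluster 2 (blue circles) and 5 against cluster 1 (grey squares). Numbers in parentheses are the ranked genes in that order. The arterial list has medians of 2.83 and 1.23, and the imprinted and fetal growth list 0.30 and 2.53.

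The counts against clusters 3 to 6 were as follows. Of 2,194, 2,099, 2,191 and 2,202 genes ranked against clusters 3, 4, 5 and 6, 616 (28.1%), 286 (13.6%), 453 (20.7%) and 455 (20.7%) were higher in cluster 0, and 351 (16%), 121 (5.76%), 286 (13.1%) and 290 (13.2%) were lower. Pearson's r of log2 levels across ranked genes, which are not independent replicates, was 0.85 with cluster 2, 0.70 with cluster 4, 0.59 with cluster 1 and 0.48 with cluster 6. Set against all other cells together, 211 of 2,035 ranked genes (10.4%) were higher and 75 (3.69%) were lower. The 10 highest ratios were those of *Gja5*, *Tmem100*, *Htra1*, *Nkx2-3*, *Sost*, *Pcsk5*, *Gja4*, *Vwf*, *Fbn1* and *Serpinf1*, and *Pcsk5*, a proprotein convertase, was at 1.20 (1.14–1.26) against 0.0549 (0.0520–0.0580). The lowest were *Tyrobp*, *C1qb*, *Fcer1g*, *Pf4*, *C1qc*, *Prtn3*, *Rac2*, *Lyz2* and *Coro1a*, genes of blood cells, and the metallothionein *Mt1*.

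Of the 20 haemogenic and early blood genes, 3 were ranked against cluster 2 and 2 were higher, *Mecom* and *Procr*, the latter the protein C receptor of endothelium and blood stem cells with a ratio of 2.63 (2.53 to 2.72). Against cluster 1, *Mecom* had a ratio of 1.61 and *Procr* of -0.94. Of the 4 genes of the list ranked there, 2 were higher and 1 was lower. *Runx1*, the factor required for blood to form from endothelium, was at 0.333, 0.407 and 0.232 in the libraries of cluster 0, 0.156 (0.130–0.185) in cluster 1, 0.0188 (0.0166–0.0212) in cluster 2 and 1.30 and 1.67 in clusters 5 and 6. After equal depth, 49 of 722 cells had a *Runx1* UMI, or 6.79% (5.06–8.87%), against 1.28% in cluster 2. In cluster 3 the share was 2.93% (1.19–5.94%), an interval that overlaps that of cluster 0. Cluster 3 had been chosen as the reference for free RNA by its arterial genes, and free RNA itself was not measured. What part of these shares comes from free RNA was not tested. *Gfi1*, a *Runx1* target that silences endothelial genes, was at 0.158 (0.137–0.182), *Gata2* at 0.824, *Tal1* at 0.466 and *Lmo2* at 3.25, the last near the 3.48 of cluster 2. Genes of formed blood cells stayed at or near 0, with *Ptprc* (CD45) at 0.0135, *Gata1* at 0.00556 and *Itga2b* (CD41) at 0.0667. Both *Runx1* and *Gfi1* were found in 17 cells, or 34.7% of the 49 *Runx1* cells and 65.4% of the 26 *Gfi1* cells. Of the 49 *Runx1* cells, 26 (53.1%) had *Gja5*, against 575 of all 722.

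Cells within cluster 0 were not uniform. After equal depth, 4,235 genes had a mean of at least 0.2 UMIs per cell, and the median ratio of variance to mean was 1.07, where counting alone gives about 1. The 15 highest ratios belonged to *Hbb-y*, *Hba-x*, *Hbb-bh1*, *Gm42418*, *Malat1*, *mt-Atp6*, *mt-Co3*, *mt-Co2*, *Fabp4*, *Acta2*, *Actb*, *mt-Cytb*, *H19*, *Hmox1* and *mt-Co1*. The embryonic globins stood out because of 1 cell of library suffix 2, which held 4,165 of 4,787 *Hbb-y* UMIs (87.0%), 2,600 of 2,647 *Hba-x* UMIs (98.2%) and 1,234 of 1,280 *Hbb-bh1* UMIs. The next cell had 115, 3 and 11. Without that cell the level of *Hbb-y* went from 3.80 to 0.496 and that of *Hba-x* from 2.10 to 0.0374. Among genes of endothelial biology, *Acta2* had a ratio of variance to mean of 10.7 and *H19* of 9.66, with 13.1, 8.82 and 9.70 for *Acta2* in the 3 libraries taken apart. Mitochondrial RNA made up 3.98% of the UMIs, and the 5 mitochondrial genes named here varied more in library suffix 3 than in the others.

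The 3 libraries had like profiles. Of the 1,940 genes that reached 1 UMI per 10,000 in any library of cluster 0, 1,890 (97.4%) differed by at most 1.5-fold between the highest and the lowest library and 9 by more than 2-fold. The 10 most different were the globins *Hbb-bh1*, *Hba-x*, *Hba-a1* and *Hbb-y*, each with at least 87.0% of its UMIs in 1 cell, and *Fabp4*, *Hist1h1e*, *Gm42418*, *Hist1h1b*, *Gm10076* and *Eln*. *Fabp4* was at 1.38, 0.963 and 0.496 in library suffixes 1, 2 and 3, and *Gm42418*, an RNA that overlaps ribosomal RNA, at 41.7, 97.6 and 90.8.

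Leiden clustering of the cluster 0 cells alone gave 6 sub-clusters, numbered by size, each with cells of all libraries. Their genes describe the division and are no test of it. Sub-cluster 1 held 175 cells (24.0%, 21.0–27.3%) and was led by *Vwa1*, *Esm1*, *Tmem255a*, *Depp1* and *Slc2a1*. *Esm1*, a gene of endothelial tip cells, was at 1.21 there and at most 0.222 in the other sub-clusters, and the glucose transporter *Slc2a1* was at 12.0 against 0.610 to 3.81. These cells also had *Gja4* at 19.6, *Dll4* at 2.89 and *Hey1* at 4.01, and the 16 genes of the G2 and M phases summed to 5.08.

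Sub-cluster 2, with 150 cells (20.6%, 17.7–23.7%), was led by *Fbln5*, *Mgp*, *Eln*, *Pdlim3* and *Fbln2*, 4 of which encode matrix proteins of the elastic artery wall. Elastin was at 2.80 there and at 0.0422 in sub-cluster 1, and *Fbln5*, which binds elastin, at 1.99 and 0.00352. *Htra1* was at 5.29 against 0.271, *Fbn1* at 4.02 against 0.486, *Bmx* at 1.53 against 0.472 and *Jag1* at 2.38 against 0.708. *Dll4* ran the other way, at 1.37 in sub-cluster 2 and 2.89 in sub-cluster 1, as did *Unc5b* at 1.46 and 3.56. *Gja5* was at 5.90 in sub-cluster 2 and 6.32 in sub-cluster 1, so that both were rich in connexin 40. *Isl1*, a homeobox factor named after its values were seen, was at 2.34 and 0.211. The sum of the vasoactive genes was 56.4 in sub-cluster 2, against 27.7 in sub-cluster 1. Of its cells, 87 had Y-linked UMIs only and 42 *Xist* only, against 76 and 75 in sub-cluster 1.

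Sub-cluster 3 held 140 cells (19.2%, 16.4–22.3%) and was led by *Acta2*, *Tagln*, *Fabp4*, *Tmem100* and *Ptgis*. *Acta2* was at 3.14, 4.94 and 5.58 in its 3 libraries and at 0.852 in the other cells of cluster 0. *Gja5* was at 6.93 and *Tmem100* at 5.33 there, above the other sub-clusters. Sub-cluster 4, with 111 cells (15.2%, 12.7–18.1%), was led by the mitotic genes *Nusap1*, *Ccnf*, *Prc1*, *Hist1h2ap* and *Aurkb*, and its G2 and M genes summed to 83.0. It had *Gja5* at 4.42 and *Gja4* at 13.5. Over all cells after equal depth, 172 of 222 cells with *Top2a* (77.5%) had a *Gja5* UMI.

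Sub-cluster 5 had 109 cells, which made up 9.06%, 21.5% and 13.7% of the cluster 0 cells of library suffixes 1, 2 and 3. Its first 3 genes were the embryonic globins of the single cell above, followed by *Aplnr* and *Ccnd1*. *Aplnr* was at 1.66, 1.64 and 1.34 in its libraries, between the 3.84 of cluster 2 and the 0.0990 of the other cells of cluster 0. *Odc1* was at 2.03 and *Clec1b* at 0.948, also the highest among the sub-clusters, whereas *Gja5* was at 3.08 and *Tmem100* at 1.78. Cells with an *Aplnr* UMI after equal depth numbered 69, of which 46 (66.7%) also had *Gja5*.

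Sub-cluster 6, with 43 cells (5.91%, 4.31–7.87%) of which 19, 17 and 7 came from library suffixes 1, 2 and 3, was led by *Gfi1*, *Sfrp2*, *Cebpb*, *Runx1* and *Neurl3*. *Runx1* was at 2.45, 2.30 and 2.43 in its libraries and at 0.178 in the other cells of cluster 0, and *Gfi1* at 1.75, 1.34 and 1.92 and at 0.0552. The arterial and endothelial genes were lower there than in the cluster at large. *Gja5* was at 1.58, *Gja4* at 5.99, *Tmem100* at 0.272 and *Cdh5* at 5.75, against 5.09, 13.9, 2.98 and 9.30 over all cluster 0 cells. The arterial list summed to 26.6, against 37.2 in sub-cluster 5 and 56.9 to 78.8 in sub-clusters 1 to 4, and the haemogenic and early blood list to 22.0, against 8.59 to 14.3 in the other sub-clusters. *Mecom* stayed at 3.39. Genes of later blood cells remained low, with *Ptprc* at 0.0247, *Itga2b* at 0.124, *Gata1* at 0 and the 9 macrophage genes at a sum of 0.309. Median depth was 18,004 UMIs per cell in sub-cluster 6 and 12,064 to 18,498 in the others. Cells with Y-linked UMIs only and with *Xist* only numbered 23 and 18 in it.

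**Figure D5:**
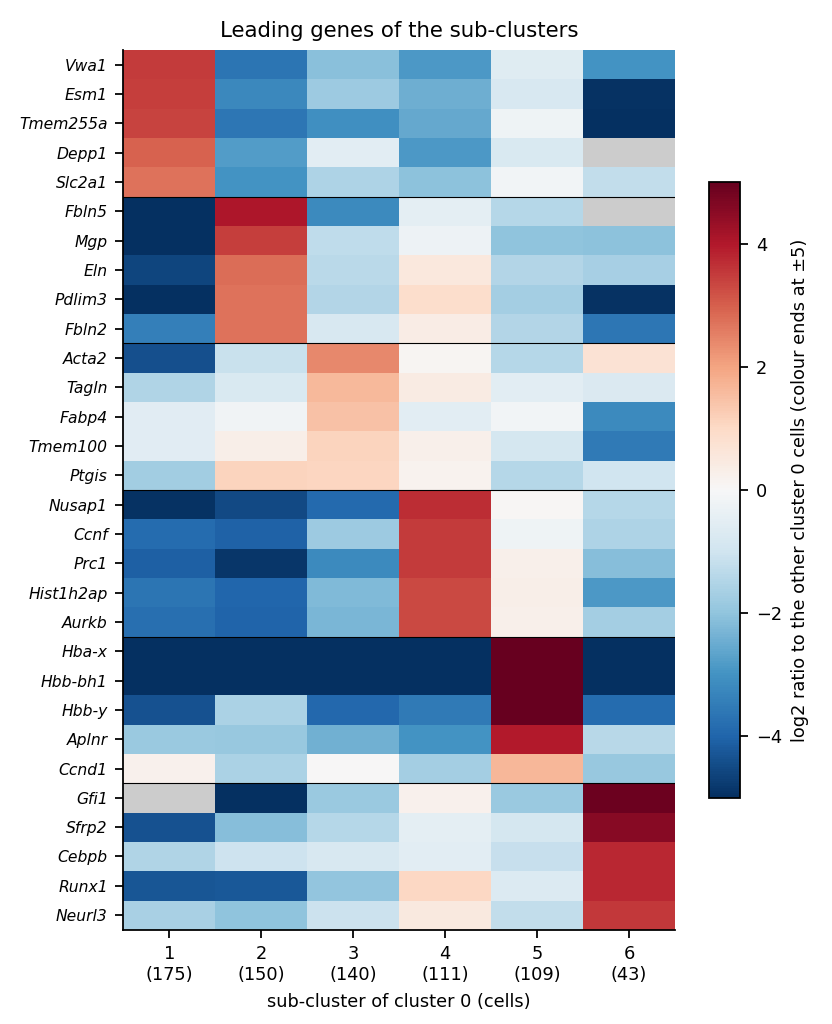
Log2 ratio (colour) of the 5 leading genes of each sub-cluster (rows) between a sub-cluster (columns, with its number of cells) and the other cluster 0 cells. Grey marks no UMI. *Runx1* and *Gfi1* are red in sub-cluster 6, the elastic fibre genes *Eln* and *Fbln5* in sub-cluster 2, and the globin block of sub-cluster 5 is owed to 1 cell.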

How the data were processed

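Single-cell libraries made with the 10x Chromium 3′ v3 chemistry were processed by the authors with Cell Ranger 3.1.0 against mm10, and Seurat 3.1.5 is also named in the submitters' processing notes. Per the methods, the libraries were aggregated with batch-effect removal, and singlets with at least 5,000 UMIs were kept, although 90 of the 9,562 deposited cells lie below this. The authors deposited UMI counts for 27,998 gene identifiers, a natural log table, and a table with coordinates and cluster numbers, of which only the cluster number, made by the authors with Leiden clustering, was used here. The natural log values as deposited are ln(1 + counts per 10,000 of the cell), which differed from values recomputed from the counts by at most 6.2e-15, and were not used further. Gene identifiers were named for 27,722 of 27,998, and identifiers with the same name were summed.

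With 3 library suffixes tied to no pool, all cells form 1 sample, so counts were summed per cluster and no test across samples was run. The interval methods, the minimum of 1 UMI per 10,000 and the 2-fold rule are given with the results. A ratio whose other group had fewer than 3 UMIs was taken against that floor. Cells were thinned to 5,000 UMIs (seed 1) for shares of cells and for variance. Sub-clusters came from 2,000 overdispersed genes, 30 principal components, 10 neighbours and Leiden resolution 0.5. Analyses ran in Python 3.11.15 with scanpy 1.11.5, igraph 0.11.9, scipy 1.17.1, pandas 2.3.3 and numpy 2.4.6, and the ratio and interval code was tested on simulated data. Scrublet called 8 cells (0.0837%) as doublets and none in cluster 0, too few to be used as a doublet call here. The methods state that singlets were kept before deposit, and no cell was removed.

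Named genes are those of 36 lists, the 10 highest and 10 lowest ratios against cluster 2, cluster 1 and all other cells, the 15 most variable genes, the 10 genes that differed most between libraries, and 5 leading genes per sub-cluster. The cluster, lists and rules were chosen with earlier results of these data known. Alternatives were a minimum of 0.1 UMIs per 10,000, the mean over cells, thinned cells, leaving out each library suffix, leaving out called doublets, other depths and other Leiden resolutions. RefSeq promoter sequences are on GRCm38.p6.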

Additional observations from a re-analysis of the deposited data

How the results depend on the processing

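Of 222 recomputed values, 187 stayed within 1.5 times the count or within the replicate spread, and 35 moved. With a minimum of 0.1 UMIs per 10,000, the genes higher and lower in cluster 0 numbered 794 and 240 against cluster 2, 1035 and 1321 against cluster 1, 2714 and 1385 against cluster 3, 995 and 1088 against cluster 4, 2083 and 1104 against cluster 5, 2152 and 961 against cluster 6, and 802 and 544 against all other clusters. Higher than in cluster 2 were then 20 arterial, 11 Notch pathway and 12 elastic fibre and basement membrane genes. Of the genes of the G2 and M phases, 5 were lower than in cluster 2 by the mean over cells, 6 with thinned cells and 1 to 3 with a library suffix left out, against 1 in the report. Without sub-cluster 4, an alternative chosen after seeing the data, 78 genes were lower than in cluster 2 in place of 45, of which 41 were shared. Without the cell rich in embryonic globin, also chosen after seeing the data, 162 of the 164 higher genes were kept. Detection as deposited, above 0.5 counts per 10,000, was 90.5% of cells for *Gja5*, 98.4% for *Gja4*, 72.4% for *Tmem100*, 90.9% for *Sox17*, 99.5% for *Cdh5* and 92.7% for *Vwf*. At 2,500 UMIs per cell it was 62.6%, 89.7%, 45.6%, 51.4%, 85.6% and 65.9%. Leiden resolution 1 gave 12 sub-clusters. The sub-cluster led by *Gfi1* and *Runx1* held the same 43 cells at resolutions 0.3 and 1, and 46 cells, 40 of them shared, when the graph was built from thinned cells.

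No paired analysis was possible because no comparison here comes from a test, and each direction was compared within each library suffix instead. With 1 sample, the intervals cover counting error and neither animals nor cultures, and no difference was tested. Fresh and cultured cells cannot be told apart. Clusters and sub-clusters were made from the genes compared. A gene under 1 UMI per 10,000 in both clusters was not ranked.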
